A study of Mus musculus with 9 samples.

Results

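The 37 genes described here mark myeloid cells that enter the brain from the blood or line its borders, or belong to the cytokine output and feedback of the transcription factor NF-kB. They were found by symbol, and all 37 were present among the 55421 genes of the count table. They comprise 11 genes of neutrophils, 6 of monocytes and 6 of border and tissue macrophages, with 9 cytokines, chemokines and secreted factors and 5 NF-kB-induced feedback and adhesion genes. Their levels were measured by RNA sequencing of cells from the mouse hippocampus in 9 libraries, 3 for each of 3 groups. The knockout mTBI group held mice with a Tmsb4x Conditional Knockout after mild traumatic brain injury, given as 1 mild cortical impact. The wild-type mTBI group had the same injury and an intact Tmsb4x gene, and the wild-type sham group had the operation without the impact. All mice carried the red fluorescent protein tdTomato in neurons, were perfused with saline, and gave trypsin-dissociated cells that were sorted live on that fluorescence. Such a gate would leave out cells without the protein, such as leukocytes. The labels give neither the driver of the knockout, the age and sex of the mice nor the time after injury. No knockout group had a sham operation, so between knockout mTBI and sham the effects of genotype and of injury cannot be told apart.

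Library totals were 36452443 to 39590872 counts. Tmsb4x, the targeted gene, had 70 to 109 counts in knockout mTBI, 11921 to 35061 in wild-type mTBI, and 61 to 105 in the libraries labelled wild-type sham. These sham libraries thus stood at the knockout level, and every direction drawn against them, here called injury or against sham, rests on their labels alone; "sham" means the libraries labelled so throughout. The sham libraries also varied less than the other groups, with a biological coefficient of variation of 18.7% in knockout mTBI, 19.6% in wild-type mTBI and 3.26% in sham. Whether they are separate mice, as labelled, was not settled by the counts, and p-values against them would be too small for repeats of 1 pool. Wild-type mTBI replicate 3 had 33521 counts of Xist, which the inactive X chromosome transcribes, against at most 35 in the other 8 libraries. It had 2 counts of the Y-linked gene Ddx3y, against 1812 to 2275 in the other 8. By these genes it was female and the others male, so it differed from them in sex as well. The summed level of 10 neuronal markers was 10414 to 12394 CPM (read counts relative to the TMM-scaled library size). That of 8 astrocyte markers was 4149 to 5242 CPM and that of 15 microglial markers 404 to 568 CPM. The libraries thus also held RNA of cells other than neurons, astrocytes more than microglia by these markers.

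Neutrophils and monocytes enter injured brain through activated endothelium, which displays selectins and the adhesion molecule ICAM-1 and releases chemokines. NF-kB drives many of these genes in endothelial cells, glia and leukocytes. It also induces its own inhibitors, such as IkBa, encoded by Nfkbia, and A20, encoded by Tnfaip3, so that their mRNAs mark recent pathway activity. Several of the 37 genes are expressed by cells that live in the brain: Lyz2 by microglia and macrophages, Mrc1, Cd163, Pf4 and F13a1 by border macrophages, Icam1 by endothelium and Lcn2 by astrocytes and endothelium.

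The genes were low. Of the 37, 26 passed the filter on low counts and were tested, 3 others reached 20 counts in at least 1 library (Mmp8, Cxcr2 and Chil3), and 8 stayed below 20 counts everywhere. A total of 15 genes had 0 counts in at least 1 library, where a count of 0 allows up to 3 counts, or 0.0747 to 0.0827 CPM by library, for counting error only. Both mates of a read pair were counted, so most fragments gave 2 counts. The limit of 3 takes each count as independent, so it is too low here. Per kilobase of exon, the highest mean levels in sham were 8.00 CPM per kb for Nfkbia, 6.87 for Lyz2 and 2.18 for Lcn2, against 30.8 CPM per kb for the microglial protease gene Ctss. The lowest were 0.00568 CPM per kb for the neutrophil chemokine receptor Cxcr2 and 0.0074 CPM per kb for the monocyte lectin Clec4e. In bulk samples, fewer cells of a type and less RNA per cell cannot be told apart. Entry of cells from the blood was not itself measured.

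None of the 26 tested genes was called in any comparison at an adjusted p under 0.05 by edgeR's quasi-likelihood test. Over all 20032 genes tested, edgeR called 0.509% after injury (wild-type mTBI over the libraries labelled sham), 0.015% in the knockout comparison (knockout mTBI over wild-type mTBI) and 0.0699% against sham (all knockout mTBI libraries over those labelled sham). At an unadjusted p under 0.05, 4 of the 26 genes passed after injury, where 13.2% of all genes did. In the knockout comparison 7 passed, all higher in knockout mTBI, where 3.25% of all genes passed in that direction. In knockout mTBI over sham 5 passed, all higher, with 4.58% of all genes passing in that direction. DESeq2 called 0 of the genes after injury, 1 (Lyz2) in the knockout comparison, where it called 0.0574% of the genes it fitted, and 0 against sham, and limma voom with sample quality weights called 0 in each.

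Knockout mTBI replicate 2 stood apart. It was the highest of the 9 libraries for 17 of the 26 tested genes, as it was for 14.1% of all genes tested. It exceeded the highest of the other 8 libraries more than 2-fold for 7 of the 26, as it did for 0.329% of all genes. These 7 were Lcn2, Cxcl1, Ms4a6c, Plac8, S100a8, Icam1 and Ccl2. Ngp and Ccl2, with 25 and 34 counts there, needed this library to pass the count filter in the fit of all 9 libraries. This favoured their place among the 17, and that of Ccl2 among the 7. The 37 genes together summed to 71.6, 256 and 74.1 CPM in knockout mTBI replicates 1, 2 and 3, to 60.2, 64.1 and 80.7 in wild-type mTBI, and to 73.0, 76.0 and 72.3 CPM in sham. Without Lcn2, the sum in knockout mTBI replicate 2 was 123 CPM, against 59.5 to 74.8 CPM in the other 8 libraries. The genes were proposed knowing that single libraries may dominate them, so this pattern is a description.

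**Figure D1:**
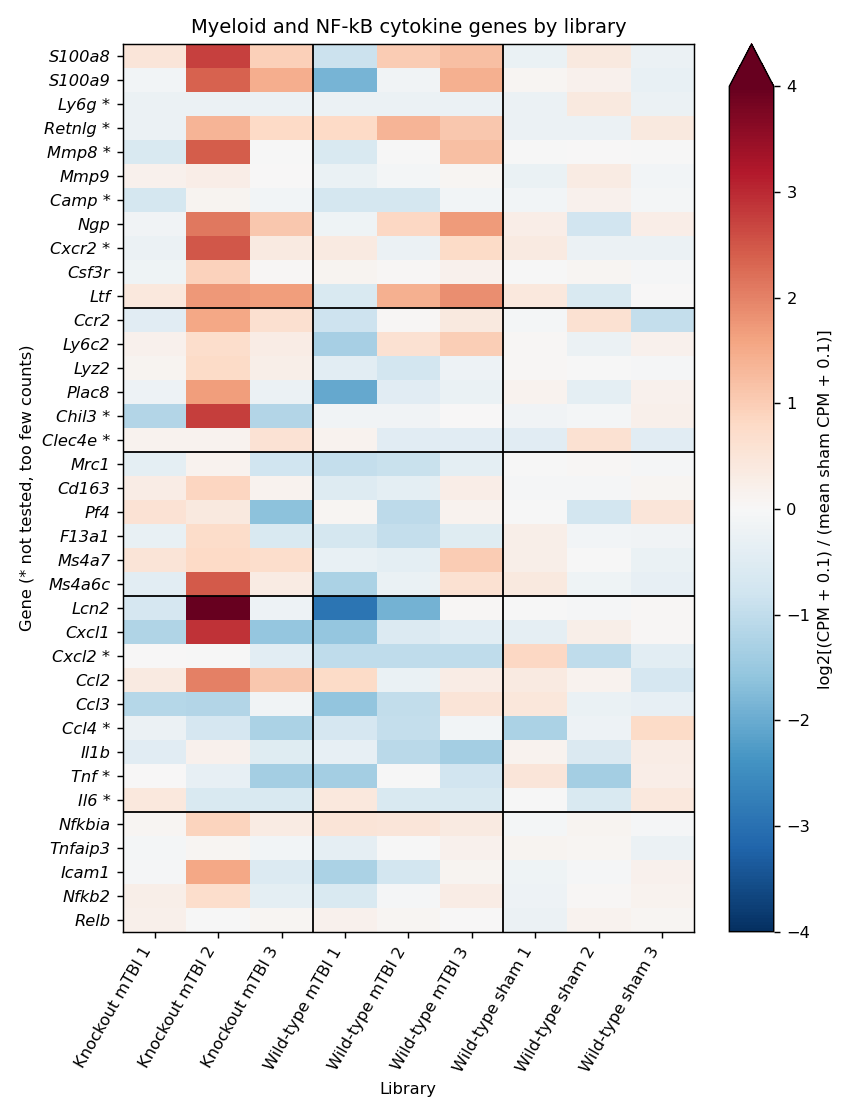
Level of each of the 37 genes (rows, grouped from the top as neutrophil, monocyte, macrophage, cytokine and NF-kB feedback genes) in each of the 9 libraries (columns), as log2 of (CPM + 0.1) over (mean sham CPM + 0.1); asterisks mark the 11 genes too low to test. Knockout mTBI replicate 2 is the darkest red column, with the highest value for 17 of the 26 tested genes, while Tnfaip3 and Relb stay pale in all columns.

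Among the secreted factors, Lcn2 was the most unequal. It encodes lipocalin-2, an iron-siderophore-binding protein of neutrophil granules that reactive astrocytes and inflamed endothelium also secrete (GRCm38 chromosome 2, 32384633 to 32388252, minus strand). It stood at 3.58, 133 and 4.96 CPM in knockout mTBI, 0.667, 1.48 and 5.95 in wild-type mTBI, and 5.63, 5.57 and 5.92 CPM in sham. Replicate 2 of knockout mTBI was 22.4 times the next highest library, while the other 2 knockout libraries lay below all 3 sham libraries. The knockout difference was log2 4.12 (SE 1.25, edgeR adjusted p = 0.732), and log2 0.66 (SE 0.64) without that library. DESeq2 returned no p for Lcn2 in this comparison, and voom with sample quality weights put the difference at log2 1.62.

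Cxcl1, a chemokine that draws neutrophils through the receptor Cxcr2, lies on chromosome 5 (90891241 to 90893115, plus strand). Its level was 0.157, 4.35 and 0.103 CPM in knockout mTBI, 0.103, 0.306 and 0.349 in wild-type mTBI, and 0.363, 0.606 and 0.524 CPM in sham. Only knockout mTBI replicate 2 exceeded sham, and every other injured library was below the lowest sham library. The closest of these, wild-type mTBI replicate 3 at 0.349 CPM and sham replicate 1 at 0.363 CPM, both had 14 counts. The knockout difference of log2 2.59 (SE 1.12, edgeR adjusted p = 0.732) turned to log2 -0.95 (SE 0.66) without replicate 2. The neighbouring gene Cxcl2, also a Cxcr2 ligand, did not share this: it had 4, 4 and 2 counts in knockout mTBI, 0 in each wild-type mTBI library, and 10, 0 and 2 counts in sham.

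Ccl2, the main ligand of the monocyte receptor Ccr2, was at 0.209, 0.870 and 0.411 CPM in knockout mTBI, 0.308, 0.102 and 0.199 in wild-type mTBI, and 0.208, 0.165 and 0.0524 CPM in sham. The 3 knockout libraries lay just above the 3 sham libraries, with 8 counts in the lowest knockout library and 8 in the highest sham library. Ccl2 passed the count filter only through injured libraries. Knockout mTBI over sham was log2 1.79 (SE 0.67, edgeR adjusted p = 0.538), and 1.11 (SE 0.70) without knockout mTBI replicate 2. The other cytokines did not peak in knockout mTBI replicate 2. Ccl3, a chemokine made by activated myeloid cells, was at 0.105, 0.102 and 0.308 CPM in knockout mTBI, 0.0513, 0.127 and 0.548 in wild-type mTBI, and 0.519, 0.276 and 0.262 CPM in sham. Il1b, the precursor of interleukin-1 beta, was at 0.366, 0.614 and 0.360 CPM in knockout mTBI, 0.410, 0.204 and 0.149 in wild-type mTBI, and 0.597, 0.331 and 0.681 CPM in sham. For both genes the 3 groups overlapped, and injury over sham was log2 -1.07 (SE 0.49, unadjusted p = 0.0506, edgeR adjusted p = 0.378) for Il1b. Ccl4, Tnf and Il6 reached at most 12, 10 and 4 counts in any library, and Il6 had 0 counts in knockout mTBI replicate 2.

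The upstream sequences of 5 of the genes are shown: the most unequal gene Lcn2, the neighbouring chemokine genes Cxcl1 and Cxcl2, and Icam1 and Nfkbia, which are known NF-kB targets. They are the 250 bases before the RefSeq start (GRCm38.p6), in the direction of transcription. Capitals mark matches on either strand to the NF-kB decamer GGGRNNYYCC, where R is A or G, Y is C or T and N is any base. Sites that depart from these letters are not marked. The windows are chr2:32387740-32387989 (minus strand) for Lcn2, chr5:90890995-90891244 (plus) for Cxcl1, chr5:90903649-90903898 (plus) for Cxcl2, chr9:21015690-21015939 (plus) for Icam1 and chr12:55492648-55492897 (minus) for Nfkbia.
Lcn2: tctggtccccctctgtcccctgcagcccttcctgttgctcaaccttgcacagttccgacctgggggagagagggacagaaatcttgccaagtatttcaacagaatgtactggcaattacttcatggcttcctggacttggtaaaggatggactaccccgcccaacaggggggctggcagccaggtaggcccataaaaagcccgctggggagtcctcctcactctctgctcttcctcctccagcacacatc
Cxcl1: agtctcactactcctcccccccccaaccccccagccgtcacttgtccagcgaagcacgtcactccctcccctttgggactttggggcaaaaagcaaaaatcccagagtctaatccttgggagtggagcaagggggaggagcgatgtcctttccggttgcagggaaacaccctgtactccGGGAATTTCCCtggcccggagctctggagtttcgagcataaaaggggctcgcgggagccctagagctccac
Cxcl2: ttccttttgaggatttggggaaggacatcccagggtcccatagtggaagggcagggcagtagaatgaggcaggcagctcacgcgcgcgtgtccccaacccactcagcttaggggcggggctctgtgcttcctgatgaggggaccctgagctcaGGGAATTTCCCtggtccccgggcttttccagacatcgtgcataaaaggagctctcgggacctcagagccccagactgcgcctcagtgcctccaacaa
Icam1: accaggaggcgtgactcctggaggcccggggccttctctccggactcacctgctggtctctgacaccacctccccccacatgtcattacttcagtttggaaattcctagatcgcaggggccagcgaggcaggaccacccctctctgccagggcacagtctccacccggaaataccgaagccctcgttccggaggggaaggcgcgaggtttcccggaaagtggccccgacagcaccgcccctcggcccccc
Nfkbia: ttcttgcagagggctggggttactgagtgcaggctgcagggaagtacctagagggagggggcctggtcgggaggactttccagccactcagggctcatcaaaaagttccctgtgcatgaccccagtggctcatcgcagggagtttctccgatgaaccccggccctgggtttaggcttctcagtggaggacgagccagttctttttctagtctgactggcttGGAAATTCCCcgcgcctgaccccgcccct
Cxcl1 and Cxcl2 carry the same run of capitals, in which a match on each strand overlaps by all but 1 base. Nfkbia has 1 match on the minus strand, 29 to 20 bases before the start. The Lcn2 and Icam1 windows hold no match. RefSeq windows were found for 33 of the 37 genes, 41 windows in all. Of these, 9 windows of 7 genes (Csf3r, Il6, Cxcl1, Cxcl2, Tnfaip3, Nfkbia and Nfkb2) held a match, and 7.25% of all 32851 windows of the mouse table did. A match is only these letters in this window, nothing about the factor follows from its presence or absence, and binding was not measured.

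**Figure D2:**
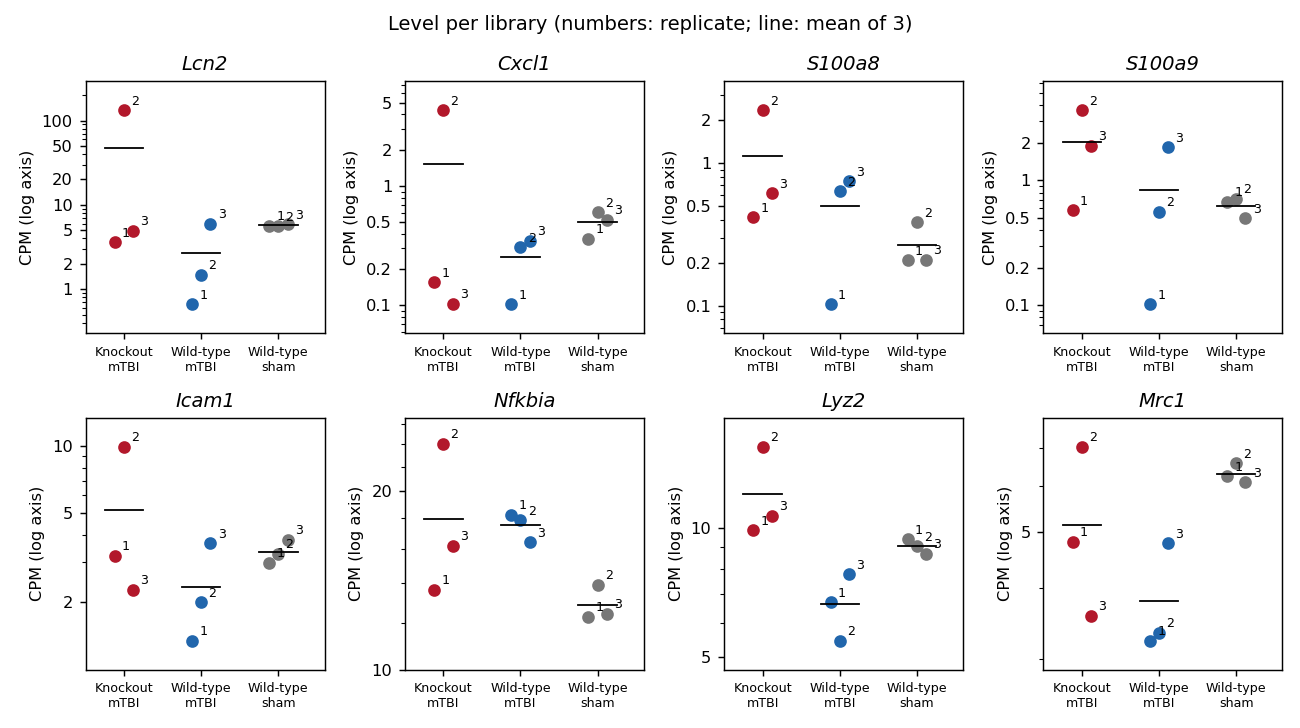
Level (CPM, log axis) of 8 of the genes in each library of knockout mTBI (red, left), wild-type mTBI (blue, middle) and sham (grey, right); digits give the replicate and lines the mean of 3. For Lcn2, Cxcl1, S100a8 and Icam1 the mean of knockout mTBI is carried by replicate 2, while for Lyz2 all 3 knockout libraries lie above all 3 wild-type mTBI libraries.

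The 5 NF-kB feedback and adhesion genes summed to 35.6 to 54.4 CPM in knockout mTBI, 35.6 to 40.1 in wild-type mTBI and 32.6 to 36.5 CPM in sham. Nfkbia (chromosome 12, 55489410 to 55492647, minus strand) stood at 13.6, 24.0 and 16.2 CPM in knockout mTBI, 18.3, 17.9 and 16.4 in wild-type mTBI, and 12.3, 13.9 and 12.4 CPM in sham. All 3 wild-type mTBI libraries lay above all 3 sham libraries, and of the 3 knockout libraries only knockout mTBI replicate 1 fell within the sham range. Injury gave log2 0.44 (SE 0.18, unadjusted p = 0.0283, edgeR adjusted p = 0.313), with adjusted p between 0.0949 and 0.664 when single libraries were left out. The knockout difference was log2 0.04 (SE 0.17), and -0.23 (SE 0.12) without knockout mTBI replicate 2.

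Icam1 (chromosome 9, 21015985 to 21028817, plus strand), which arrests rolling leukocytes on endothelium, was at 3.22, 9.92 and 2.26 CPM in knockout mTBI, 1.33, 1.99 and 3.66 in wild-type mTBI, and 2.99, 3.28 and 3.80 CPM in sham. Again only knockout mTBI replicate 2 exceeded the sham range. The knockout difference was log2 1.14 (SE 0.50, edgeR adjusted p = 0.732), and 0.23 (SE 0.37) without that library. Tnfaip3, the ubiquitin-editing inhibitor A20, was at 7.58, 8.44 and 7.40 CPM in knockout mTBI, 6.16, 7.95 and 9.07 in wild-type mTBI, and 8.67, 8.43 and 6.81 CPM in sham. Nfkb2, the precursor of the non-canonical subunit p52, was at 3.82, 5.29 and 2.44 CPM in knockout mTBI, 2.08, 3.16 and 4.01 in wild-type mTBI, and 2.80, 3.31 and 3.59 CPM in sham. Relb, its partner subunit, was at 7.97, 6.73 and 7.32 CPM in knockout mTBI, 7.75, 7.21 and 6.97 in wild-type mTBI, and 5.87, 7.55 and 7.17 CPM in sham. The groups overlapped for all 3 of these genes, and Relb was lower in knockout mTBI replicate 2 than in either other knockout library.

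S100a8 and S100a9 encode the subunits of calprotectin, the main cytosolic protein of neutrophils, and neighbour each other on chromosome 3 (90668978 to 90670035 and 90692632 to 90695721). S100a8 stood at 0.418, 2.35 and 0.616 CPM in knockout mTBI, 0.103, 0.637 and 0.747 in wild-type mTBI, and 0.208, 0.386 and 0.209 CPM in sham. All 3 knockout libraries and 2 of the 3 wild-type mTBI libraries lay above sham. The lowest knockout library had 16 counts and the sham libraries 8, 14 and 8, so S100a8 passed the count filter only through injured libraries. Knockout mTBI over sham was log2 2.07 (SE 0.76, edgeR adjusted p = 0.524), and 0.94 (SE 0.70) without knockout mTBI replicate 2. S100a9 was at 0.575, 3.66 and 1.90 CPM in knockout mTBI, 0.103, 0.561 and 1.84 in wild-type mTBI, and 0.675, 0.717 and 0.497 CPM in sham. It exceeded sham in 3 libraries, knockout mTBI replicates 2 and 3 and wild-type mTBI replicate 3.

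The granule genes Ltf (lactotransferrin) and Ngp (neutrophilic granule protein) were higher in those same 3 libraries and in wild-type mTBI replicate 2. Ltf had 4, 16 and 15 counts in knockout mTBI, 0, 12 and 18 in wild-type mTBI, and 4, 0 and 2 in sham. Ngp had 2, 25 and 10 counts in knockout mTBI, 2, 8 and 18 in wild-type mTBI, and 4, 0 and 4 in sham, and it no longer passed the count filter without knockout mTBI replicate 2. Injury over sham was log2 2.19 (SE 1.14, edgeR adjusted p = 0.431) for Ltf and 1.70 (SE 1.07, edgeR adjusted p = 0.509) for Ngp, values that rest on few counts. Both genes passed the count filter only through injured libraries. Mmp8, neutrophil collagenase, had 0, 28 and 2 counts in knockout mTBI, 0, 2 and 10 in wild-type mTBI, and 2 in each sham library. Cxcr2 had 0, 22 and 2 counts in knockout mTBI, 2, 0 and 4 in wild-type mTBI, and 2, 0 and 0 in sham.

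Retnlg, resistin-like gamma of neutrophils, had 0, 8 and 4 counts in knockout mTBI, 4, 8 and 6 in wild-type mTBI, and 0, 0 and 2 in sham, so all 3 wild-type mTBI libraries lay above sham at counts too low to test.

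Csf3r, the receptor of the neutrophil growth factor G-CSF, was at 5.65, 12.1 and 6.52 CPM in knockout mTBI, 6.80, 6.50 and 7.20 in wild-type mTBI, and 6.31, 6.64 and 6.07 CPM in sham. Outside knockout mTBI replicate 2 it lay between 5.65 and 7.20 CPM. Its sham level of 1.76 CPM per kb was the highest of the neutrophil genes, followed by 1.21 CPM per kb for S100a9. Mmp9, gelatinase B, was at 2.17, 2.35 and 1.95 CPM in knockout mTBI, 1.59, 1.84 and 2.04 in wild-type mTBI, and 1.58, 2.43 and 1.78 CPM in sham. Ly6g, the surface antigen that defines mouse neutrophils, had 0 counts in 8 libraries and 2 in sham replicate 2. Camp, the cathelicidin of neutrophil granules, reached at most 3 counts. Reads shared with close relatives were left out of the counts, which may lower Ly6g, Ly6c2, Chil3 and Lyz2.

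Of the monocyte genes, Lyz2 gave the smallest p of the 26 genes in the knockout comparison. It encodes lysozyme M of monocytes, macrophages and neutrophils (chromosome 10, 117277331 to 117282321, minus strand). Its level was 9.86, 15.4 and 10.7 CPM in knockout mTBI, 6.70, 5.46 and 7.80 in wild-type mTBI, and 9.40, 9.04 and 8.69 CPM in sham. The 3 groups did not overlap, with wild-type mTBI lowest. The knockout difference was log2 0.85 (SE 0.18, unadjusted p = 0.00072, edgeR adjusted p = 0.732), and 0.63 (SE 0.15, edgeR adjusted p = 0.693) without knockout mTBI replicate 2. With single libraries left out the edgeR adjusted p was 0.328 to 0.851. DESeq2 called Lyz2 higher in knockout mTBI (adjusted p = 0.0146), as did edgeR without a count filter (adjusted p = 0.00781), which then called 0.195% of all genes. Over all alternatives its adjusted p ran from 0.00781 to 0.928. Injury over sham gave log2 -0.44 (SE 0.18, edgeR adjusted p = 0.333).

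Plac8, a small protein of monocytes and neutrophils, was at 0.261, 1.23 and 0.257 CPM in knockout mTBI, 0, 0.204 and 0.249 in wild-type mTBI, and 0.363, 0.220 and 0.367 CPM in sham. It and Lyz2 were the 2 of 26 genes higher in every knockout than in every wild-type mTBI library, as were 4.86% of all genes, and 0 were lower throughout, as were another 4.86% of all genes, although for Plac8 the lowest knockout library was at 0.257 CPM and the highest wild-type mTBI library at 0.249 CPM. Ccr2, the receptor that takes monocytes to Ccl2, was at 0.261, 1.33 and 0.668 CPM in knockout mTBI, 0.180, 0.408 and 0.548 in wild-type mTBI, and 0.363, 0.661 and 0.157 CPM in sham. Ly6c2, the antigen of inflammatory monocytes, had 7, 12 and 8 counts in knockout mTBI, 0, 11 and 16 in wild-type mTBI, and 6, 4 and 7 in sham. For Ccr2 and Ly6c2 the groups overlapped. Chil3, a chitinase-like protein of monocytes and neutrophils, had 0, 56 and 0 counts in knockout mTBI, 4, 4 and 5 in wild-type mTBI, and 4, 4 and 6 in sham. Chil3 was thus not detected at this depth in both other knockout libraries. Clec4e reached at most 4 counts.

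**Figure D3:**
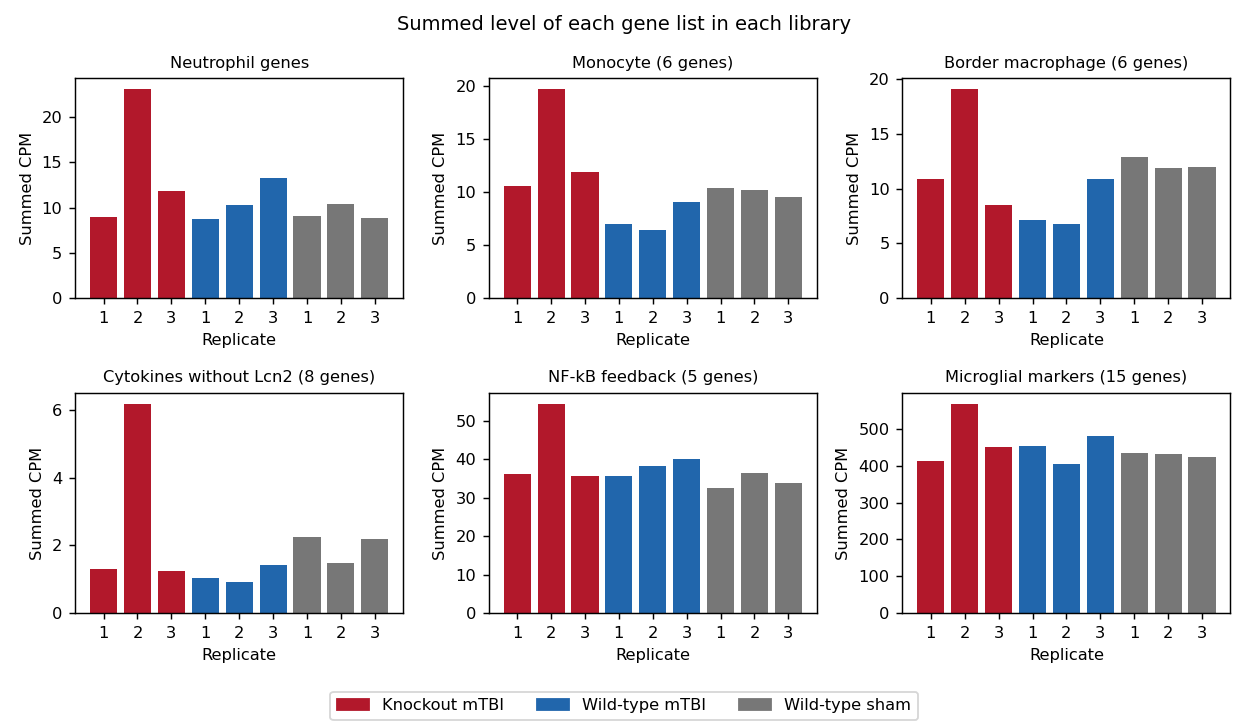
Summed CPM of 5 groups of the genes and of 15 microglial markers in each library (bars; knockout mTBI red, wild-type mTBI blue, sham grey; replicates 1 to 3 within each). Knockout mTBI replicate 2 has the tallest bar in each panel, from 6.19 CPM for the cytokines without Lcn2 to 568 CPM for microglial markers.

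The macrophage genes summed to less in every wild-type mTBI library than in every sham library, as did the monocyte genes. Most of the monocyte sum was Lyz2, the only monocyte gene lower by itself in this way. Of the macrophage genes only Mrc1 and F13a1 were, and for the others wild-type mTBI and sham overlapped. The macrophage sums were 10.9, 19.1 and 8.53 CPM in knockout mTBI, 7.11, 6.81 and 10.9 in wild-type mTBI, and 12.9, 11.9 and 11.9 CPM in sham. Mrc1 (chromosome 2, 14229392 to 14332057, plus strand), the mannose receptor CD206 of border macrophages, was at 4.81, 7.03 and 3.57 CPM in knockout mTBI, 3.23, 3.34 and 4.78 in wild-type mTBI, and 6.26, 6.59 and 6.10 CPM in sham. Of the 6 injured libraries, only knockout mTBI replicate 2 reached the sham range or above. Injury gave log2 -0.74 (SE 0.24, unadjusted p = 0.0103, edgeR adjusted p = 0.229), with adjusted p between 0.112 and 0.555 over the fits without 1 library. Knockout mTBI over sham was log2 -0.30 (SE 0.24) with all libraries and -0.60 (SE 0.21) without knockout mTBI replicate 2. F13a1, the coagulation factor XIII A subunit, was at 2.54, 5.29 and 2.03 CPM in knockout mTBI, 1.92, 1.58 and 2.22 in wild-type mTBI, and 3.71, 2.89 and 2.88 CPM in sham. Its injury difference was log2 -0.73 (SE 0.33, unadjusted p = 0.0472, edgeR adjusted p = 0.370), and like Mrc1 it exceeded sham only in knockout mTBI replicate 2.

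Cd163, the haemoglobin-haptoglobin scavenger receptor, differed from both. It was at 1.88, 2.81 and 1.70 CPM in knockout mTBI, 1.03, 1.15 and 1.84 in wild-type mTBI, and 1.48, 1.46 and 1.62 CPM in sham, so the 3 knockout libraries lay above the 3 sham libraries. The knockout difference was log2 0.67 (SE 0.28, edgeR adjusted p = 0.732), and 0.42 (SE 0.28) without replicate 2. Ms4a7, a membrane protein of border macrophages, was at 0.523, 0.665 and 0.616 CPM in knockout mTBI, 0.257, 0.229 and 0.772 in wild-type mTBI, and 0.415, 0.331 and 0.262 CPM in sham. Ms4a6c, its relative on chromosome 19, was at 0.261, 2.58 and 0.514 CPM in knockout mTBI, 0.103, 0.306 and 0.648 in wild-type mTBI, and 0.545, 0.331 and 0.288 CPM in sham. Ms4a6c rested on knockout mTBI replicate 2, whereas Ms4a7 was similar in all 3 knockout libraries. Pf4, platelet factor 4, also made by border macrophages, had 32, 28 and 4 counts in knockout mTBI, 22, 8 and 24 in wild-type mTBI, and 20, 10 and 30 in sham, with full overlap.

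**Figure D4:**
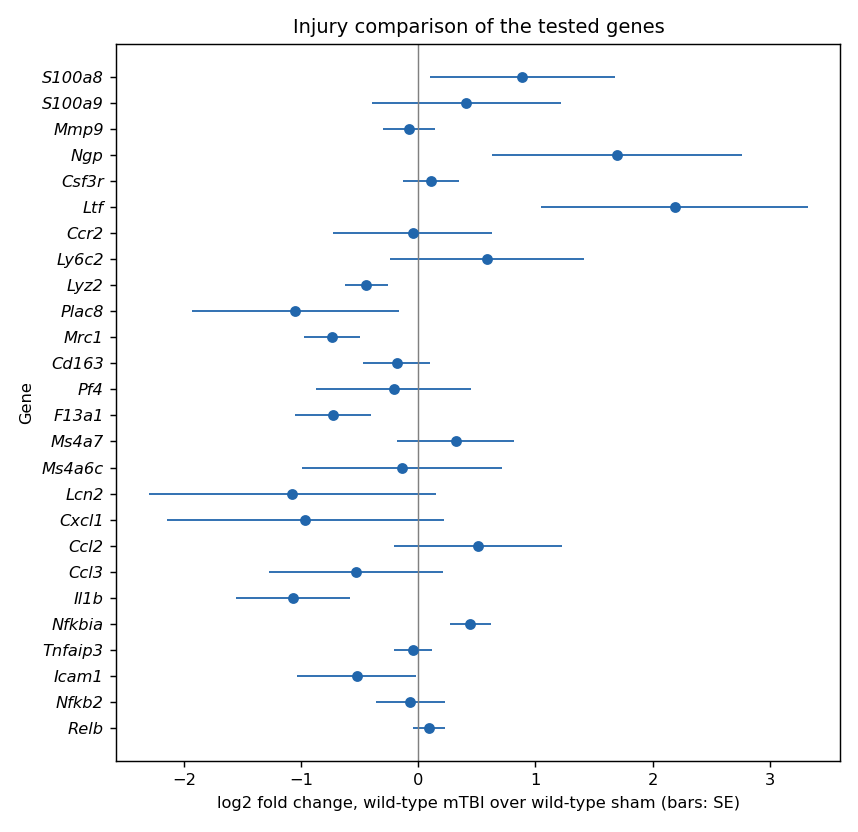
Injury differences (log2 fold change of wild-type mTBI over sham, points; bars are SE) of the 26 tested genes. Mrc1, F13a1, Lyz2 and Il1b lie below 0 and Nfkbia above it by more than 2 SE, while Ltf and Ngp have the highest values with wide errors.

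Over the 26 genes, 10 injury differences were positive and 16 negative, where 53.0% of all genes were positive, with a median of log2 -0.07, where the median of all genes was 0.02. Groups did not overlap for 1 gene higher after injury (Nfkbia), as for 12.4% of all genes, and for 4 lower (Lyz2, Mrc1, F13a1 and Cxcl1), as for 11.5% of all genes. For Cxcl1, wild-type mTBI replicate 3 and sham replicate 1 both had 14 counts. Neutrophil genes were positive in 5 of 6 tested and macrophage genes negative in 5 of 6, and none was called. Ltf and Ngp, 2 of these neutrophil genes, had at most 4 counts in any sham library, and S100a8, another, had 8, 14 and 8. Of the other positive genes, Ly6c2 had 6, 4 and 7 counts in sham and Ccl2 had 8, 6 and 2. All of these passed the count filter only through injured libraries, which favoured their positive sign against sham. The negative gene Ccl3, at 20, 10 and 10 counts in sham, needed its sham libraries to pass, which favoured its negative sign. In the knockout comparison 25 of 26 differences were positive with a median of log2 0.59, where 50.2% of all genes were positive with a median of 0.00. Without knockout mTBI replicate 2, 18 of 25 were positive with a median of log2 0.15, where 49.8% of all genes were positive. Then 1 of 25 (Lyz2, higher) had an unadjusted p under 0.05, as 3.23% of all genes did in that direction. Leaving out knockout mTBI replicate 2 removed 6 of the 7 genes at that threshold. Wild-type mTBI replicate 1, the lowest of the 9 libraries for 14 of the 26 genes and for 24.6% of all genes, also bore on this: without it 4 of 26 passed, as did 6.06% of all genes.

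Knockout mTBI stood above sham without overlap for 6 of the 26 genes (S100a8, Ltf, Lyz2, Cd163, Ms4a7 and Ccl2), as for 8.75% of all genes, and below sham for 0, as for 8.4% of all genes. For Ltf the lowest knockout library and the highest sham library both had 4 counts, at 0.1046 and 0.1039 CPM. Ltf and Ccl2, with at most 4 and 8 counts in any sham library, passed the count filter only through injured libraries. So did S100a8, with 8, 14 and 8 counts in sham and 16 in the lowest knockout library. This favoured the place of Ltf, Ccl2 and S100a8 among the 6. Differences were positive for 22 of 26 with all libraries, as for 52.6% of all genes, and for 12 of 25 without knockout mTBI replicate 2, as for 51.2% of all genes. Knockout mTBI shares its libraries between this comparison and the knockout comparison, so the counts are not independent.

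**Figure D5:**
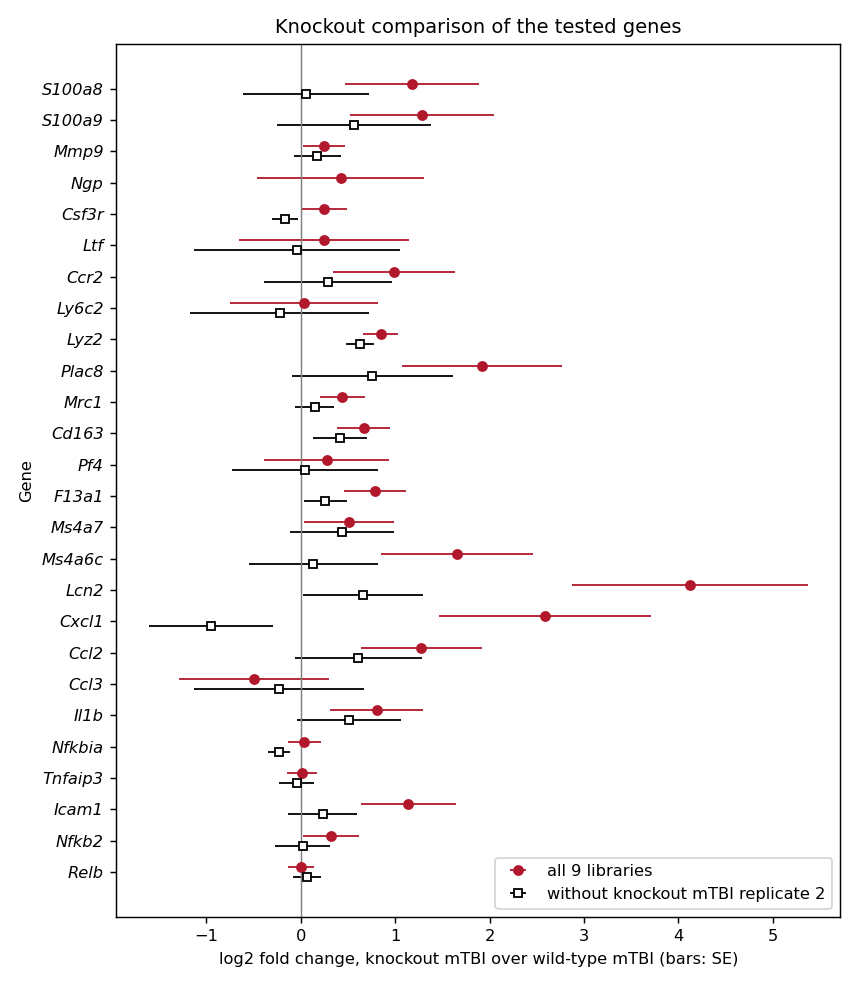
Knockout differences (log2 fold change of knockout mTBI over wild-type mTBI; bars are SE) of the 26 tested genes with all 9 libraries (red circles) and without knockout mTBI replicate 2 (open squares; Ngp was then too low to test). With all libraries Lcn2 is at 4.12 and Cxcl1 at 2.59; without that library they are at 0.66 and -0.95, and Lyz2 is at 0.63.

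The wider NF-kB pathway was measured with 29 genes of receptors' adaptors, kinases, subunits and inhibitors, all of them tested. None was called in any of the 3 comparisons, and 1, 2 and 0 of the 29 had an unadjusted p under 0.05 after injury, in the knockout comparison and against sham, where 13.2%, 6.6% and 7.2% of all genes did, in that order. Their summed level was 904 to 967 CPM in knockout mTBI, 825 to 932 in wild-type mTBI and 935 to 956 CPM in sham. The smallest p in the knockout comparison was that of Bcl3, an NF-kB-induced nuclear IkB protein, at 0.654, 2.38 and 0.360 CPM in knockout mTBI, 0.103, 0.204 and 0.498 in wild-type mTBI, and 0.597, 1.32 and 0.733 CPM in sham. It was highest in knockout mTBI replicate 2, with a knockout difference of log2 2.06 (SE 0.73, edgeR adjusted p = 0.732), and 0.90 (SE 0.64) without that library.

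Of 20 cytokine and chemokine receptors, 19 were tested and none was called in any of the 3 comparisons, with 3, 2 and 5 at an unadjusted p under 0.05, against the same 13.2%, 6.6% and 7.2% of all genes. Tnfrsf1b, the TNF receptor 2, was at 4.31, 5.53 and 4.78 CPM in knockout mTBI, 3.46, 2.98 and 3.66 in wild-type mTBI, and 4.10, 4.44 and 3.72 CPM in sham. The knockout and wild-type mTBI libraries did not overlap, and the difference was log2 0.53 (SE 0.16, edgeR adjusted p = 0.732). Of 21 other inflammatory ligands, 18 were tested and none was called, with 2, 5 and 2 at that unadjusted threshold, again beside 13.2%, 6.6% and 7.2% of all genes. Ccl12, a mouse ligand of Ccr2, was at 0.837, 2.69 and 0.668 CPM in knockout mTBI, 0.282, 0.0765 and 0.623 in wild-type mTBI, and 0.571, 0.386 and 0.681 CPM in sham. Its knockout difference was log2 2.08 (SE 0.67, edgeR adjusted p = 0.732), and 1.19 (SE 0.62) without knockout mTBI replicate 2. Csf3, which encodes G-CSF, was at 0.157, 1.30 and 0.257 CPM in knockout mTBI, 0.0770, 0.280 and 0.0498 in wild-type mTBI, and 0.234, 0.110 and 0.0524 CPM in sham, highest in the library where its receptor gene Csf3r was highest.

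The endothelial selectin genes were likewise highest in knockout mTBI replicate 2. Sele, E-selectin, which NF-kB induces on activated endothelium, was at 0.157, 5.19 and 0.103 CPM in knockout mTBI, 0, 0.0510 and 0.0996 in wild-type mTBI, and 0.467, 0.551 and 0.262 CPM in sham. Selp, P-selectin, was at 0.183, 5.37 and 0.205 CPM in knockout mTBI, 0.0513, 0.0510 and 0.374 in wild-type mTBI, and 0.0779, 0.276 and 0.419 CPM in sham. In knockout mTBI replicate 2, Sele was 9.42 times and Selp 12.8 times the highest of the other 8 libraries. Knockout differences were log2 5.08 (SE 1.49) for Sele and 3.56 (SE 1.27) for Selp, each with an edgeR adjusted p of 0.732. Without that library they were 1.31 (SE 0.92) for Sele and 0.28 (SE 0.95) for Selp. Of the 8 adhesion genes none was called in any comparison, with 0, 2 and 1 at an unadjusted p under 0.05, where 13.2%, 6.6% and 7.2% of all genes passed. Without knockout mTBI replicate 2, the knockout comparison had 0 of 29 pathway genes and 1 of 19 receptors at that threshold. It had 3 of 17 ligands and 1 of 8 adhesion genes there, and 7.02% of all genes passed. The receptor and the ligands were higher in knockout mTBI, and the adhesion gene was lower. Knockout mTBI over sham then had 0, 2, 2 and 1 of them, in that order, as 8.71% of all genes did. There both receptors, 1 ligand and the adhesion gene were lower, and 1 ligand was higher.

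Markers of other cells moved with that library to a smaller degree. The 15 microglial markers summed to 568 CPM in knockout mTBI replicate 2 and to 404 to 480 CPM in the other 8 libraries, but P2ry12, the homeostatic microglial receptor, was at 16.7 CPM there and at 28.8 to 34.4 CPM in the others. The 8 pan-leukocyte genes summed to 156 CPM against 117 to 138 CPM, and 10 endothelial identity genes to 274 CPM against 213 to 263 CPM. The 9 red cell and platelet genes summed to 89.4 CPM there and were highest in wild-type mTBI replicate 3, at 174 CPM. Choroid plexus genes were at 3787 CPM there, within the 58.9 to 4480 CPM of the other injured libraries and above the 49.7 to 51.3 CPM of sham. Only 3 of 13 lymphocyte and mast cell genes passed the filter. The part of these cells in the results was not tested.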

How the data were processed

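Gene levels were measured by RNA sequencing of hippocampal cells in 9 mouse libraries, 3 per group. The deposited values are raw counts per Ensembl gene; per the file headers they were made with featureCounts 2.0.6 on Ensembl release 98 (GRCm38) exons. Its command, per the file headers, counted mates singly, ignored strand and left out reads with several alignments, so antisense overlaps and close relatives are uncertain. HISAT2, SAMtools, Trim Galore, MultiQC and FastQC are named in the submitters' processing notes, without their settings. Symbols, positions and exon lengths came from GENCODE M21, which matched 55240 of 55421 genes.

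All else was computed here. CPM used TMM factors. Genes passing filterByExpr (minimum count 10) were tested in 1 fit of all 9 libraries, without covariates, by the two-sided quasi-likelihood test of edgeR 4.0.16 (R 4.3.3), with Benjamini-Hochberg adjustment over 20032 genes and calls at an adjusted p under 0.05. The test was first run on simulated data. Where nothing says that libraries came from separate animals, p-values measure only the spread between them. The alternatives were other scalings, filters, tools (DESeq2 1.42.0 and limma 3.58.1 voom), a replicate block, 6-library fits, counts divided by 2, and libraries left out. Genes were described by library where tested or at 20 or more counts in a library, and by counts otherwise; from other lists those of smallest p were taken. The genes and lists were chosen with earlier results of these data known. Libraries with the same replicate number did not deviate together.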

Additional observations from a re-analysis of the deposited data

How the results depend on the processing

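No tested gene of the 37 was called by edgeR under RLE size factors, no composition scaling, totals without mitochondrial, haemoglobin and choroid plexus genes, the stricter filter, counts divided by 2, fits of the 6 libraries compared, the replicate block, voom, or any left-out library. Without a count filter, 2 were called in the knockout comparison (Lcn2 and Lyz2) and 2 against sham (Lcn2 and S100a8), and all genes called were 676 after injury, 68 in the knockout comparison and 387 against sham. DESeq2 called 1 of the genes in the knockout comparison, and 544, 20 and 226 of all genes in the 3 comparisons in that order. Voom called 722 of all genes after injury and 279 against sham, the stricter filter 64 after injury, and the 6-library fits 253, 1 and 71. Without replicate 1 of both injured groups, 523, 24 and 337 of all genes were called, and with single libraries left out 5 to 252, 2 to 7 and 2 to 128. The replicate numbers did not pair the libraries; the replicate block gave 107, 3 and 13 calls over all genes and 0 among the 37. Over the left-out libraries, the log2 differences of some uncalled genes changed sign. In the injury comparison these were Ccr2 (-0.43 to 0.53), Ly6c2 (-0.095 to 1.16), Mmp9 (-0.21 to 0.11), Ms4a6c (-0.92 to 0.30), Ms4a7 (-0.47 to 0.60), Nfkb2 (-0.31 to 0.15), Pf4 (-0.52 to 0.19), Relb (-0.017 to 0.16), S100a9 (-0.92 to 0.93) and Tnfaip3 (-0.18 to 0.095). In the knockout comparison these were Ccl3 (-1.21 to 0.92), Csf3r (-0.16 to 0.45), Cxcl1 (-0.95 to 3.14), Ltf (-0.33 to 0.96), Ly6c2 (-0.54 to 0.71), Nfkbia (-0.23 to 0.20), Ngp (-0.043 to 0.92), Pf4 (-0.15 to 0.76), Relb (-0.059 to 0.067) and Tnfaip3 (-0.12 to 0.15). In knockout mTBI over sham these were Csf3r (-0.063 to 0.56), Cxcl1 (-1.92 to 2.17), F13a1 (-0.47 to 0.31), Icam1 (-0.30 to 0.97), Lcn2 (-0.42 to 3.60), Ms4a6c (-0.0057 to 1.99), Nfkb2 (-0.052 to 0.50), Pf4 (-0.36 to 0.55), Plac8 (-0.29 to 1.22), Relb (-0.0068 to 0.17) and Tnfaip3 (-0.13 to 0.033). Voom turned Ccr2 0.40, Mmp9 0.022, Ms4a6c 0.080, Nfkb2 0.093 and Tnfaip3 0.065 after injury, Cxcl1 -0.33, Ltf -0.12, Ly6c2 -0.28, Nfkb2 -0.089, Nfkbia -0.061, Ngp -0.45, Pf4 -0.32 and Tnfaip3 -0.12 in the knockout comparison, and Cxcl1 -0.99, F13a1 -0.29, Icam1 -0.021 and Pf4 -0.77 against sham (log2). With replicate 1 of both injured groups left out, Ccr2 0.28, Mmp9 0.0091, Ms4a6c 0.30, Nfkb2 0.15 and Tnfaip3 0.095 after injury, Ly6c2 -0.40, Relb -0.015 and Tnfaip3 -0.10 in the knockout comparison and Pf4 -0.36 against sham turned. Relb turned to -9.5e-05 in the knockout comparison without a count filter, and S100a9 to -0.0051 after injury with the replicate block. The cause was not tested. Low counts left 11 of the 37 genes untested, 5 of 11 neutrophil, 2 of 6 monocyte and 4 of 9 cytokine genes.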

Other observations

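Knockout mTBI replicate 2 was also high in genes other than the 37. Among tested genes at 5 CPM or more in that library, ranked by their level there over the highest of the other 8 libraries, the first was Lcn2, followed by Selp and Sele. These further genes were chosen after their values were seen. Plin4, a lipid-droplet coat protein, was at 63.0 CPM there and at 3.61 to 11.0 CPM elsewhere. Cdkn1a, the cell-cycle inhibitor p21, was at 22.0 CPM there and at 4.13 to 6.87 CPM elsewhere. Cd14, the lipopolysaccharide co-receptor of myeloid cells, was at 11.9 CPM there and at 1.46 to 3.06 CPM elsewhere. Il4ra, the interleukin-4 receptor alpha chain, was at 14.6 CPM there and at 2.92 to 5.32 CPM elsewhere. Cp, ceruloplasmin, was at 57.1 CPM there and at 12.5 to 22.5 CPM elsewhere, and Heph, hephaestin, at 22.9 CPM there and at 5.80 to 9.50 CPM elsewhere. Scgb3a1, a secretoglobin, was at 5.42 CPM there and at 0.103 to 0.747 CPM elsewhere, and Sult1a1, a sulfotransferase, at 39.0 CPM there and at 6.94 to 12.2 CPM elsewhere. Pglyrp1, a peptidoglycan-binding protein of neutrophil granules, was at 11.3 CPM there and at 3.49 to 4.28 CPM elsewhere. None of these genes was called in the knockout comparison, each with an edgeR adjusted p of 0.732 to 0.740. Whether the library differs by the mouse, the injury or its handling was not tested.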
